A study of Homo sapiens with 8 samples.

Results

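The genes described here are 10 immediate early genes: the Fos family members FOS, FOSB, FOSL1 and FOSL2, the Jun family members JUN, JUNB and JUND, and EGR1, IER2 and MYC. They were chosen by name, by a rule that uses no measured value, but with earlier results of these data known. All 10 were found among the 63241 genes of the NCI-H716 tables. FOSL2, JUN, EGR1 and MYC were found among the 28043 genes used of the HCT116 table, which as used here covers chromosomes 1 to 8 and stops within chromosome 9. The other 6 lie on chromosomes 11, 14 and 19 and were not analysed in HCT116. RNA had been sequenced from HCT116 and NCI-H716, human colorectal cancer cell lines, each as control cells and as cells treated with Z325 (ZINC000101867325), a compound picked by docking as a candidate inhibitor of fibroblast growth factor receptors (FGFRs). There were 2 libraries for each line and treatment, 8 in all, and within a line the labels name no difference but Z325 between control and treated cells. The lines were grown in different media, so medium and line cannot be told apart. Each library was amplified from about 100 cells. The duration of the Z325 treatment is not given in the sources used here, and the study states its working concentration only for the experiments after the viability assays in general.

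The name immediate early is used here for the whole group, although JUND is expressed more constantly in most cells. In the strict sense, immediate early genes are transcribed within minutes of a growth factor signal and need no new protein for it. Receptor tyrosine kinases such as the FGFRs reach them through the RAS and ERK cascade, whose kinases act on serum response factor with its ELK partners at CArG boxes, and on CREB at cyclic AMP response elements. Fos and Jun proteins pair through leucine zippers to form AP-1, EGR1 is a zinc finger factor that binds GC-rich sites, IER2 is a short nuclear protein of the same early wave, and MYC pairs with MAX to drive growth and ribosome production. In colorectal tumours MYC is also a known output of Wnt signalling.

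Library totals ran from 10210243 to 19738848 expected counts in NCI-H716. In HCT116, 3 libraries held between 13183792 and 13396225 counts and Z325 replicate 2 held 3434620, so its values carry the largest counting error. The epithelial marker EPCAM was present in both lines. KRT8 and KRT18 were high in NCI-H716, where CDH1, CDX1 and KRT20 stayed under 1 CPM in every library. In HCT116, 2 of the 3 listed epithelial markers, CDX1 and VIL1, stayed under 1 CPM in every library. Of 10 markers of other cell types, 7 stayed under 1 CPM throughout in NCI-H716, PTPRC, COL1A1 and PECAM1 among them. Their summed level was 247 and 272 CPM in the controls and 320 and 362 CPM with Z325, nearly all of it COL3A1, and its part in the results below was not tested. CPM here are counts scaled by library total and TMM factor, and values are given in the order control 1, control 2, Z325 1, Z325 2. In bulk libraries, fewer cells carrying a transcript and less of it per cell cannot be told apart.

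In NCI-H716, the members fell into 3 patterns. By CPM, FOS, FOSB and IER2 had lower levels in both treated libraries than in both controls. FOSL2, EGR1 and MYC had higher levels in both, and FOSL1, JUN, JUNB and JUND overlapped. By TPM, FOS, FOSB and IER2 stayed below both controls, but the higher pattern did not hold. FOSL2 was at 0.8, 0.58, 0.77 and 0.64 TPM and MYC at 41.96, 54.98, 47.89 and 76.1 TPM, both overlapping. EGR1 was at 3.15 TPM in both control replicate 1 and Z325 replicate 1. None of the 10 passed an adjusted p of 0.05 in edgeR's quasi-likelihood test, against 0.502% of the 14142 genes tested (0.403% as higher and 0.099% as lower), and the smallest adjusted p was 0.130, for FOS. Before adjustment, 4 of 10 had a p under 0.05, namely FOS, FOSB and IER2 as lower, against 9.27% of all genes, and MYC as higher, against 7.59%. Groups that did not overlap were common, with 49.4% of all genes (24.3% above and 25.1% below), so the 6 of 10 found here are near the background. The median log2 fold change of the 10 was -0.083, and that of all genes tested was -0.0063.

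**Figure D1:**
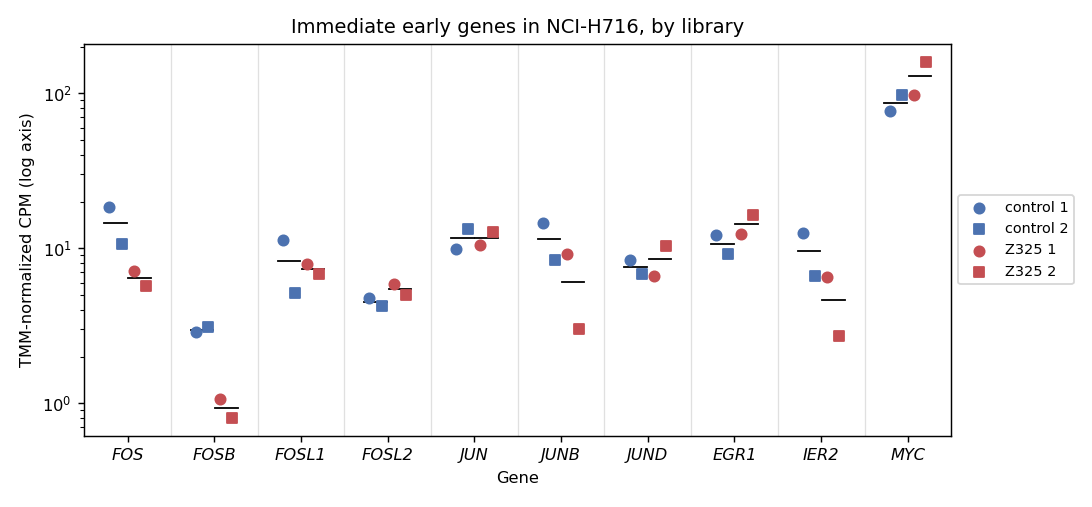
Level of each gene in the 4 NCI-H716 libraries, in TMM-normalized CPM on a log axis, with blue for control, red for Z325, circles for replicate 1, squares for replicate 2 and black lines for group means. The treated libraries lie below both controls for FOS, FOSB and IER2 and above both for FOSL2, EGR1 and MYC, where Z325 replicate 2 reached 159 CPM.

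Among the Fos genes, FOS and FOSB had the lower treated levels. FOS, the founding inducible Fos gene (ENSG00000170345, GRCh38 chr14:75278826-75282230, plus strand), stood at 18.5, 10.7, 7.18 and 5.68 CPM in NCI-H716. Control replicate 1 was the highest and the treated libraries were close to each other. The mean was 14.6 ± 5.52 CPM in control and 6.43 ± 1.06 CPM with Z325 (SD, n = 2 each). This is a log2 fold change of -1.19 ± 0.32 (SE), or 0.438 of the control level, with an adjusted p of 0.130 in edgeR. Without control replicate 1 the log2 fold change was -0.73.

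FOSB, a Fos protein with strong transactivation (ENSG00000125740, chr19:45467995-45475179, plus strand), had 38 and 32 expected counts in the controls and 14 and 16 with Z325. These are 2.88, 3.10, 1.07 and 0.804 CPM, and the replicates of each group lay close together. The log2 fold change was -1.68 ± 0.54, the largest of the members in size, with an adjusted p of 0.183 in edgeR. It lay between -1.87 and -1.46 when any 1 library was left out.

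FOSL1 and FOSL2 encode the Fos-related antigens, which lack the strong activation domain of FOS and FOSB. FOSL1 (ENSG00000175592, chr11:65892049-65900573, minus strand) was at 11.4, 5.14, 7.94 and 6.84 CPM in NCI-H716. The treated libraries lay between the controls, with a log2 fold change of -0.17 ± 0.37 and an adjusted p of 0.851 in edgeR. FOSL2 (ENSG00000075426, chr2:28392448-28417317, plus strand) was at 4.77, 4.27, 5.88 and 4.98 CPM. Both treated libraries were above both controls by little in CPM, with a log2 fold change of 0.26 ± 0.34 and an adjusted p of 0.743 in edgeR. In HCT116, FOSL2 was at 10.6, 9.74, 10.9 and 6.59 CPM, and the last of these rests on 23 counts in the shallow library. Its log2 fold change there was -0.18 ± 0.37 with an adjusted p of 0.824 in edgeR, and 0.12 without that library.

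The promoters of FOS, FOSB and EGR1 are shown as examples. In NCI-H716 the treated libraries lay below the controls for FOS and FOSB, and by CPM above them for EGR1. IER2 lay below the controls too, and by CPM FOSL2 lay above them, and their promoters are not shown. Each promoter shown is the 250 bases before the RefSeq start on GRCh38.p14, 5′ to 3′ on the strand of the gene. Capitals mark the core of the cyclic AMP response element, TGACG, on either strand (read as CGTCA on the other), the TATA box TATAAA, the CArG box and the EGR site GCGNGGGCG. The TATA box was searched on the gene's strand and the others on both.
FOS (chr14:75278578-75278827, plus strand): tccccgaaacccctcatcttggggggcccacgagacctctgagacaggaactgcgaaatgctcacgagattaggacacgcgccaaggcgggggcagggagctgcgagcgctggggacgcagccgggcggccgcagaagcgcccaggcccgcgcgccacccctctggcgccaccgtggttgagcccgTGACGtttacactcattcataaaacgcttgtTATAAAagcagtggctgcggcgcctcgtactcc
FOSB (chr19:45467746-45467995, plus strand): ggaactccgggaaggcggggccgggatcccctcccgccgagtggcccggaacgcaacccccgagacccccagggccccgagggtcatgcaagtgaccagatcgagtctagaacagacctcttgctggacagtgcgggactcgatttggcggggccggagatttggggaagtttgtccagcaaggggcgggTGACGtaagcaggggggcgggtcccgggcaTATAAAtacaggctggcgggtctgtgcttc
EGR1 (chr5:138465229-138465478, plus strand): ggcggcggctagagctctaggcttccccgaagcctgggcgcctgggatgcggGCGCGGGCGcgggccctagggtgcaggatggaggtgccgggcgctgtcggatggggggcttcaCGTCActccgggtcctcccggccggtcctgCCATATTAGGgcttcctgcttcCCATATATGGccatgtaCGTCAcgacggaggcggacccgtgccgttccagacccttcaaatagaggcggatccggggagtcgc

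FOS and FOSB share a layout, a TGACG core at -64 and -60 and a TATA box at -33 and -30, with positions counted back from the base before the start as -1 and given for the 5′ base of each match. EGR1 holds CArG boxes at -105 and -83, cores at -135 and -66 and an EGR site at -198, and no TATAAA. IER2 holds a core at -140 and FOSL2 cores at -201 and -66, both without TATAAA. Whether any layout goes with the direction of a difference was not tested. RefSeq windows were found for 8 of the 10 members, FOSL1 and MYC being without an entry. The core stood in all 8, against 21.2% of the 35116 windows of the same length in the table. The CArG box stood in EGR1 alone of the 8, against 1.16% of all windows, and the EGR site likewise, against 8.41%. TATAAA stood in FOS, FOSB and JUNB, against 6.8%. The whole response element TGACGTCA, which contains the core, stood in JUND alone, at -200, against 1.65% of windows. Neither the AP-1 site TGACTCA nor the E-box CACGTG was in any of the 8 windows, against 4.2% and 6.34%. The core and the TATA box were added to the search after the windows had been read. A match is a run of letters and was not tested for binding. Bases farther upstream or past the start were not searched, so a motif absent here may stand outside the window.

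Among the Jun genes, JUNB had lower treated levels in part and JUN and JUND did not differ beyond their spread. JUNB (ENSG00000171223, chr19:12791486-12793315, plus strand), a Jun protein that can hold back JUN, was at 14.5, 8.44, 9.16 and 3.02 CPM in NCI-H716. Z325 replicate 1 lay between the controls and replicate 2 well below them. Its log2 fold change was -0.95 ± 0.47 with an adjusted p of 0.329 in edgeR, and -0.32 without Z325 replicate 2. JUNB shares 259 exon bases, 14.2% of its exon length, with HOOK2 on the other strand, and since the counting is not stated to use strand its level is uncertain.

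JUN (ENSG00000177606, chr1:58776845-58784048, minus strand), the main partner of FOS, was at 9.84, 13.4, 10.5 and 12.8 CPM in NCI-H716. The groups overlapped, with means of 11.6 ± 2.5 and 11.6 ± 1.63 CPM (SD, n = 2 each), and the log2 fold change was 0.0077 ± 0.27, with an adjusted p of 0.992 in edgeR. In HCT116 JUN had only 19, 3, 28 and 4 counts, or 1.37, 0.230, 2.19 and 1.15 CPM. The groups overlapped there too, with a log2 fold change of 1.10 ± 1.0 and an adjusted p of 0.561. The controls, about equally deep, held 19 and 3 counts, so a difference of this size could not be detected at these counts and this spread. JUND (ENSG00000130522, chr19:18279694-18281622, minus strand), the Jun gene with the most constant expression in most cells, was at 8.41, 6.79, 6.64 and 10.3 CPM in NCI-H716. The treated libraries lay to either side of the controls, with a log2 fold change of 0.16 ± 0.31 and an adjusted p of 0.833 in edgeR.

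Since AP-1 is a dimer drawn from these 7 genes, their transcripts were also set side by side per length, as TPM in NCI-H716. The 7 summed to 28.7 and 19.5 TPM in the controls and 18.8 and 16.2 TPM with Z325, so the sums did not overlap but Z325 replicate 1 lay close to control replicate 2. FOS made up 26.2% and 22.4% of the sum in the controls and 15.9% and 13.7% with Z325. FOSL1 made up 23.0% and 17.0%, then 26.6% and 26.2%, but its own level was 6.58, 3.31, 4.98 and 4.24 TPM and overlapped. With Z325, FOSL1 was thus the Fos transcript with the highest share in both libraries, whereas FOS held that place in both controls. JUNB made up 24.0%, 20.8% and 22.8% in the first 3 libraries and 8.60% in Z325 replicate 2, where JUND had the highest share, 27.5%. The Fos genes together made up 54.4%, 46.2%, 48.2% and 45.0%, and this balance of Fos to Jun transcripts overlapped between groups. These are shares of transcript and not of protein, and no test was run on them.

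**Figure D2:**
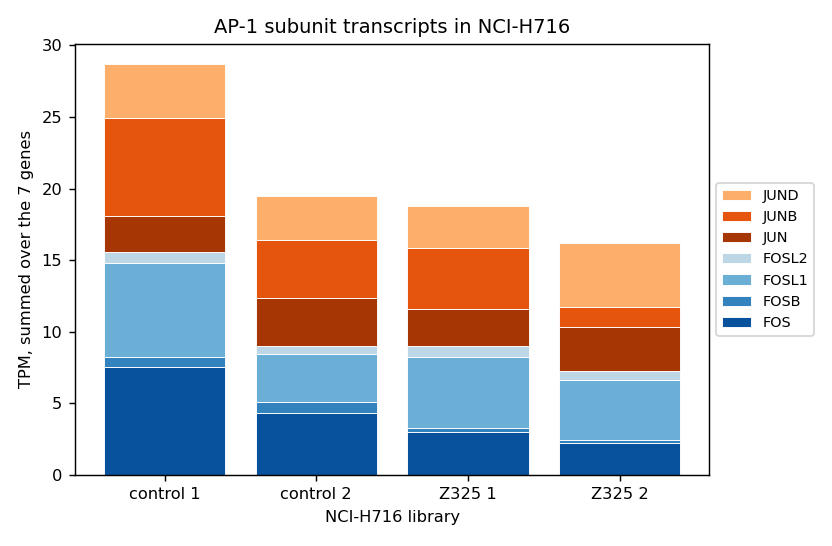
TPM of the 4 Fos genes (blue) and the 3 Jun genes (orange) stacked for each NCI-H716 library, with the height of a bar the sum over the 7 genes. FOS is at 7.52 and 4.35 TPM in the controls and at 2.99 and 2.22 TPM with Z325, and JUNB is at 1.39 TPM in Z325 replicate 2.

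EGR1 (ENSG00000120738, chr5:138465479-138469303, plus strand) had higher mean treated levels in both lines. In HCT116 it had 337, 196, 631 and 136 counts, or 24.4, 15.0, 49.3 and 39.0 CPM. Both treated libraries stood well above both controls, the shallow one included. The mean was 19.7 ± 6.60 CPM in control and 44.2 ± 7.34 CPM with Z325 (SD, n = 2 each), which is a log2 fold change of 1.17 ± 0.30, or 2.25-fold. The unadjusted p was 0.00392 and the adjusted p 0.0583 in edgeR, just short of the threshold, and the adjusted p lay between 0.000124 and 0.403 over 11 alternatives, under 0.05 in 8 of them. Of the 4 members in HCT116, EGR1 alone had a p under 0.05 before adjustment, against 23.9% of the 6491 genes tested (11.2% as higher and 12.7% as lower), and none passed the adjusted threshold, against 5.78%. It was also the only one whose groups did not overlap, against 53.8%.

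In NCI-H716, EGR1 was at 12.1, 9.12, 12.4 and 16.3 CPM. Z325 replicate 1 lay only just above control replicate 1, and in TPM both were at 3.15. The log2 fold change was 0.44 ± 0.27, or 1.36-fold, with an adjusted p of 0.431 in edgeR. EGR1 was higher with Z325 under each of the 14 alternatives in NCI-H716 and each of the 11 in HCT116, while FOS and FOSB were lower under each that was run on them.

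**Figure D3:**
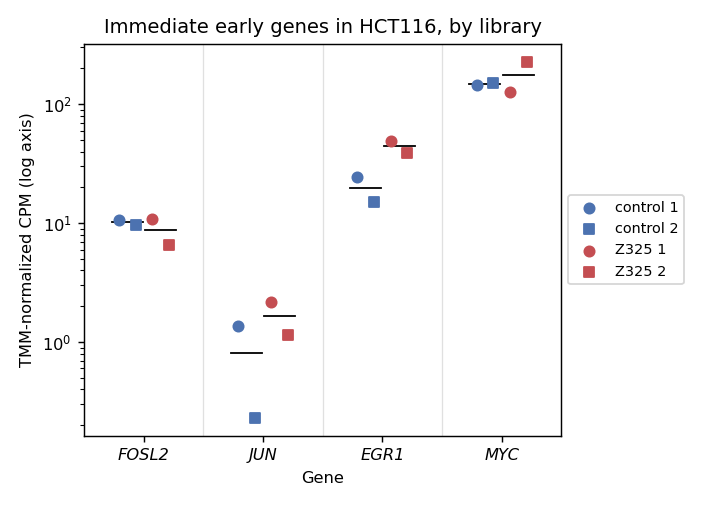
Level of the 4 members listed in HCT116 in each library, in TMM-normalized CPM on a log axis, with symbols as for NCI-H716. EGR1 is above both controls in both treated libraries, and MYC is at 126 CPM in Z325 replicate 1 and 227 CPM in Z325 replicate 2, to either side of the controls.

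IER2 (ENSG00000160888, chr19:13150411-13154911, plus strand) was at 12.5, 6.59, 6.57 and 2.71 CPM in NCI-H716. Control replicate 2 and Z325 replicate 1 were all but equal, so the separation of the groups rests on the other two libraries. The log2 fold change was -1.07 ± 0.45, with an unadjusted p of 0.0370 and an adjusted p of 0.270 in edgeR, and it lay between -1.81 and -0.52 with 1 library left out. IER2 shares 662 and 946 exon bases, 21.5% and 30.7% of its exon length, with 2 long noncoding RNAs on the other strand, so its level is uncertain.

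MYC (ENSG00000136997, chr8:127735434-127742951, plus strand) was by far the most abundant of the 10 members in NCI-H716 and of the 4 listed in HCT116. In NCI-H716 it was at 76.8, 97.3, 97.9 and 159 CPM. Z325 replicate 1 was level with control replicate 2, and Z325 replicate 2 was far above the rest. This gave a log2 fold change of 0.57 ± 0.24, or 1.48-fold, with an unadjusted p of 0.0359 and an adjusted p of 0.267 in edgeR, and 0.18 without Z325 replicate 2.

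In HCT116, MYC was at 145, 151, 126 and 227 CPM. The controls were close together, with a mean of 148 ± 4.31 CPM, and the treated libraries lay to either side of them, with a mean of 177 ± 71.7 CPM (SD, n = 2 each). MYC had a log2 fold change of 0.24 ± 0.25 there, with an adjusted p of 0.607 in edgeR. It was 0.60 without Z325 replicate 1 and -0.21 without the shallow Z325 replicate 2, so the direction rests on that library. MYC shares 194 exon bases, 3.18% of its exon length, with CASC11 on the other strand, and the HCT116 table gives it a length of 4584 bases where GENCODE v44 has 6109.

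**Figure D4:**
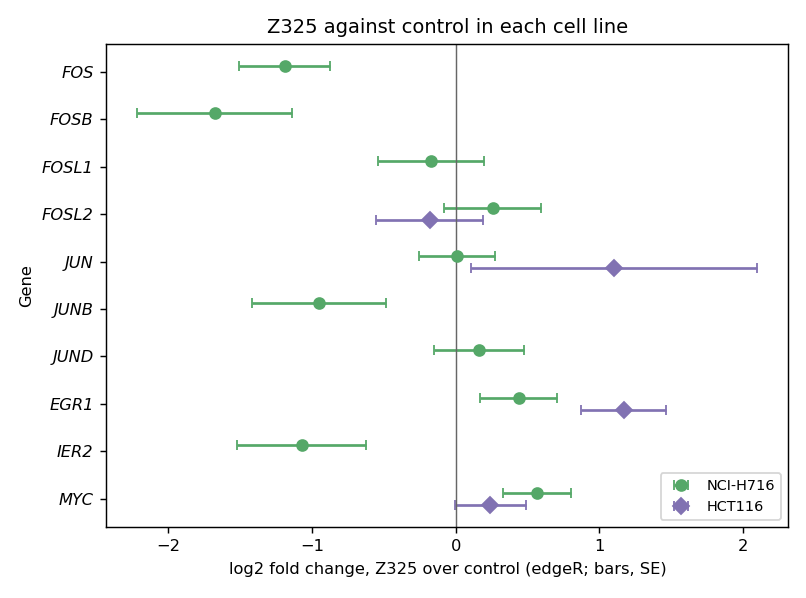
Log2 fold change of Z325 over control for each member, with the SE as bars, in NCI-H716 (green circles) and, for the 4 members listed there, in HCT116 (purple diamonds). FOS, FOSB, JUNB and IER2 lie left of 0 in NCI-H716, and EGR1 and MYC lie right of 0 in both lines.

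Whether Z325 had a different effect in the 2 lines was tested for the 4 shared members as an interaction over all 8 libraries. For EGR1 the effect in HCT116 minus that in NCI-H716 was 0.75 ± 0.44 on the log2 scale, with an adjusted p of 0.463 in edgeR. For JUN it was 1.17 ± 0.79, for FOSL2 -0.42 ± 0.53 and for MYC -0.32 ± 0.39, with adjusted p-values of 0.517, 0.774 and 0.758. None of the 4 passed, against 0.0654% of the 7642 genes tested, and these standard errors are as large as or larger than the effects seen in NCI-H716 for 3 of the 4 genes.

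Per length, the controls of NCI-H716 had MYC at 48.5 ± 9.21 TPM (SD, n = 2), apart from all others. FOS, JUNB, FOSL1, IER2, JUND, JUN and EGR1 followed, with means from 5.94 down to 2.77 TPM, and each overlapped the next in this order. FOSB and FOSL2 stood apart below them at 0.73 and 0.69 TPM and did not differ from each other beyond their spread. With Z325 the order was MYC, FOSL1, JUND, EGR1, JUNB, JUN, FOS, IER2, FOSL2 and FOSB. This order is of means over 2 libraries, and with Z325 FOS, at 2.61 ± 0.54 TPM, overlapped JUN and IER2, its neighbours. FOSB stood apart at the bottom with Z325, at 0.235 ± 0.078 TPM. In HCT116, over the listed genes, MYC was at 95.2 ± 0.27 TPM in control, EGR1 at 18.6 ± 6.79, FOSL2 at 4.18 ± 0.37 and JUN at 0.662 ± 0.68, with no neighbours overlapping.

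Other immediate early genes lay more often above 0 than below in NCI-H716. Of 25 tested there, 17 had a fold change above 0 and 8 below, none passed the adjusted threshold, and their median log2 fold change was 0.17. In HCT116, 9 of 19 lay above 0 and the median was -0.12. TIPARP, a mono-ADP-ribosyltransferase that restrains the aryl hydrocarbon receptor, was the only one of the 19 that passed, against 2.94% of all genes called as lower, at 90.0, 81.8, 31.2 and 28.1 CPM. It fell by 1.53 on the log2 scale (SE 0.20, adjusted p 0.00677 in edgeR), with both treated libraries at about the same low level. The adjusted p was 0.0839 without control replicate 1 and 0.0942 without control replicate 2. In NCI-H716 TIPARP was at 19.3, 17.6, 12.5 and 19.7 CPM, and the groups overlapped.

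The kinases and factors upstream of these genes were 16 above 0 and 3 below among 19 tested in NCI-H716, with a median of 0.13 and none past the adjusted threshold, while before adjustment 5 had a p under 0.05 as higher and 1 as lower, against 7.59% and 9.27% of all genes. RPS6KA3, which encodes the ERK-activated kinase RSK2, was at 120, 143, 165 and 186 CPM, higher in both treated libraries, with an adjusted p of 0.261 in edgeR. MAPK14 (p38 alpha) had a log2 fold change of 0.042 ± 0.19. In HCT116 all 6 tested lay below 0, with a median of -0.15 and none past the adjusted threshold. Before adjustment 1 of the 6, MAPK14, had a p under 0.05 as lower, against 12.7% of all genes. MAPK14 was there at 51.0, 42.7, 32.9 and 32.7 CPM, a log2 fold change of -0.51 ± 0.22 with an adjusted p of 0.203 in edgeR. Of the proteins that pair with Jun, ATF3 was at 4.16, 6.11, 6.87 and 9.55 CPM in NCI-H716, higher in both treated libraries, with an adjusted p of 0.321. ATF2 and ATF7, which bind the response element, had log2 fold changes of -0.14 ± 0.18 and 0.036 ± 0.19. The medians of this list were -0.14 over 5 tested genes in NCI-H716 and -0.095 over 3 in HCT116, and none passed. NAB1 and NAB2, which repress EGR1's activity and of which NAB2 is itself an EGR1 target, did not pass in NCI-H716 either, at 0.032 ± 0.20 and -0.44 ± 0.50. In HCT116 NAB1, the only one listed, was at 0.17 ± 0.26.

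Of 20 AP-1 target genes, 9 were tested in NCI-H716, 6 above 0 and 3 below, with a median of 0.13 and none past the adjusted threshold. In HCT116 all 5 tested lay above 0, with a median of 0.64, and 1 of the 5 passed the adjusted threshold in edgeR as higher, against 2.83% of all genes. That call was lost without control replicate 1.

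Among 40 MYC target genes, all were tested in NCI-H716, with 11 above 0, 29 below and a median of -0.18. None passed the adjusted threshold, and before adjustment 7 of 40 had a p under 0.05 as lower, against 9.27% of all genes, and 1 as higher, against 7.59%. In HCT116, 21 were listed and tested, with 6 above 0, 15 below and a median of -0.28, and 3 of the 21 fell at an adjusted p under 0.05, against 2.94% of all genes called as lower. Nucleolin (NCL), which acts in ribosomal RNA transcription, was at 1329, 1002, 685 and 688 CPM. It fell by 0.76 on the log2 scale (SE 0.15, adjusted p 0.0294 in edgeR), and the treated libraries were nearly equal. TBRG4, which acts on mitochondrial RNA, fell by 1.34 (adjusted p 0.0326) and MRTO4, a ribosome assembly factor, by 0.64 (adjusted p 0.0460). All 3 missed the threshold without either control, with adjusted p-values from 0.0877 to 0.352, and MRTO4 also without Z325 replicate 2, at 0.0512. In NCI-H716 the same 3 genes had log2 fold changes of -0.036, -0.071 and -0.36, and none passed.

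Genes of the MYC network, which hold its partner MAX and the MXD and MLX proteins, were 7 above 0 and 7 below among 14 tested in NCI-H716, with a median of 0.025. In HCT116, 3 of 9 lay above 0, with a median of -0.18, and none passed in either line. PVT1, the long noncoding RNA gene next to MYC, had very high levels in NCI-H716, at 1873, 1077, 1340 and 888 CPM. Its highest library was control replicate 1, where MYC was lowest, and its lowest was Z325 replicate 2, where MYC was highest. The log2 fold change of PVT1 was -0.41 ± 0.27 with an adjusted p of 0.466 in edgeR, and the groups overlapped. In HCT116 it was at 415, 541, 537 and 478 CPM, again with overlap, and there its lowest library was control replicate 1 while MYC was lowest in Z325 replicate 1 and highest in Z325 replicate 2. MLX and MLXIP, which pair with each other, had log2 fold changes of -0.31 ± 0.19 and 0.22 ± 0.18 in NCI-H716.

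How far each difference rests on a single library is shown by the values with each left out in turn, where the lone library left in a group is taken to vary like the others. FOSB, FOS and IER2 stayed below 0 and EGR1 above 0 in each such fit. JUNB stayed below 0 as well but ranged from -1.92 to -0.32. EGR1 in HCT116 ranged from 0.85 to 1.55, lowest without control replicate 2.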

How the data were processed

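The authors prepared cDNA from about 100 cells per library with a SMART-Seq2 kit and sequenced it as paired ends. The paper's methods name TrimGalore 0.4.5, STAR 2.6.1c, GRCh38 and RSEM 1.3.1, while the submitters' processing notes name Bowtie2 2.5.0, featureCounts and hg38, and the role of each is not given there. For NCI-H716 the authors deposited RSEM tables of expected count, TPM and FPKM per gene, of which the FPKM was not used. For HCT116 they deposited raw counts for the 4 libraries with gene lengths, and TPM for that line was computed here from the deposited counts and lengths over the listed genes. Strandedness and the treatment of shared reads are not given in the sources used here. In the HCT116 table, 4 broken or unfinished lines were left out. NCI-H716 identifiers were matched to symbols through GENCODE v44, 62666 of 63241.

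Expected counts were rounded. Each line was fitted alone in edgeR 4.0.16 (R 4.3.3) with TMM, filterByExpr, treatment as the only term and the quasi-likelihood test, adjusted by Benjamini-Hochberg over all 14142 or 6491 genes tested; all members listed in a line passed the filter. The paper used a two-tailed test on FPKM, which was replaced because counts were deposited. The difference between lines was an interaction over 7642 genes. The biological coefficient of variation was 0.203 in NCI-H716 and 0.245 in HCT116. Counting error and the spread of 2 libraries per group, described by the authors as biological duplicates, limit every value, and p-values measure the spread between these libraries only. The members and the lists (other immediate early genes, AP-1 partners, upstream kinases and serum response factors, EGR co-repressors, MYC network, MYC targets, AP-1 targets, heat shock, epithelial markers and markers of other cell types) were written from general knowledge and chosen with earlier results of these data known. From each list the genes at an adjusted p under 0.05 in either line were named, or, with none, the 3 with the highest mean CPM in NCI-H716; other names were chosen after their values were seen, and some genes that this rule selects are not reported here. Promoter windows came from RefSeq on GRCh38.p14. The steps were tested on simulated data. Alternatives were DESeq2 1.42.0, other size factors, other filters, limma 3.58.1 on log2(TPM + 1) or log2(TPM + 0.1), a replicate block, thinning to the shallowest library and leaving out each library.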

Additional observations from a re-analysis of the deposited data

How the results depend on the processing

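Over 225 recomputed values of the members, 195 kept their direction and side of the threshold, 20 passed it newly and 10 changed sign. Calls of members changed in some fits with 1 library left out, where a group holds a single library, and effect sizes are given below for these fits. With all libraries kept and no replicate block, the number of members called in NCI-H716 was 0. It became 1 (FOS, adjusted p 0.00938 in edgeR) with no filter on low counts. DESeq2, limma, RLE factors, library size alone, a minimum of 10 counts and thinning left it at 0. In HCT116 it was 0 and became 1, EGR1, under DESeq2 (adjusted p 0.00334), RLE factors (0.0380), a minimum of 10 counts (0.0269), no filter (0.0048) and thinning (0.0343), but not with library size alone (0.0749). Calls over all genes changed with the setting too, in HCT116 from 184 higher to 402 under DESeq2, so these counts are not particular to the members. With 1 library left out, the log2 fold change in NCI-H716 ranged from -1.52 to -0.73 for FOS and from -1.92 to -0.32 for JUNB. It ranged from -1.81 to -0.52 for IER2 and from 0.18 to 0.88 for MYC. For EGR1 in HCT116 it ranged from 0.85 to 1.55. FOSB had no adjusted p in DESeq2. FOSB, FOSL2 and NAB2 fell under the mean TPM minimum and JUN in HCT116 under the minimum of 10 counts and after thinning, so these have no value there. The cause of these changes was not tested.

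The replicate numbers were shared between control and Z325 in the labels, but 2 pairs do not show pairing. Deviations of same-numbered libraries correlated at 0.198 in NCI-H716 and -0.031 in HCT116. With a replicate block, 5 members were called in NCI-H716 (FOS, FOSB, JUNB, IER2 and MYC) and 1 in HCT116 (EGR1, adjusted p 0.0270 in edgeR). Of the other genes named, PVT1, RPS6KA3, MRTO4, HSPH1, HSP90AA1, HSPA8, HBB and COL3A1 were called in NCI-H716 too. All genes called in NCI-H716 went from 57 higher and 14 lower to 1061 and 1336. None of the 4 shared members differed between the lines under any alternative.

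Signs changed for the following genes. With 1 library left out, the log2 fold change in NCI-H716 ranged from -0.61 to 0.53 for FOSL1, -0.20 to 0.25 for JUN, -0.18 to 0.45 for JUND, -0.087 to 0.18 for ATF7, -0.095 to 0.21 for MAPK14, -0.11 to 0.20 for NAB1, -0.84 to 0.17 for NAB2, -0.74 to 0.055 for PVT1, -0.20 to 0.068 for TBRG4, -0.20 to 0.14 for NCL, -1.10 to 0.15 for LYZ and -0.54 to 0.10 for TIPARP. In HCT116 it ranged from -0.64 to 0.12 for FOSL2, -0.21 to 0.60 for MYC, -0.097 to 0.28 for PVT1, -0.021 to 0.19 for EPCAM and -0.24 to 0.057 for ATF2, and the difference between lines from -0.79 to 0.066 for MYC. Limma on log2(TPM + 1), with a mean TPM of at least 1 or no filter, gave -0.037 for JUN, -0.17 for ATF7 and -0.018 for MAPK14, and with 0.1 added gave -0.046, -0.18 and -0.019. Thinning gave -0.030 for ATF7 and -0.0029 for NAB1. Of 19 list medians, over 239 recomputed values, 50 moved and 19 changed sign. JUN in HCT116 and FOSB rest on the fewest counts.

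Genes called in HCT116 numbered 184 higher and 191 lower, 402 higher with DESeq2 and 423 lower with no filter; in NCI-H716 limma called 0 of either with no filter. With 1 library left out, these counts ran from 15 to 514 higher and 6 to 562 lower in HCT116 and from 31 to 502 higher and 7 to 884 lower in NCI-H716.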

Other observations

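Heat shock genes lay mostly above 0 in NCI-H716, and none passed the adjusted threshold. Of 9 tested, 7 lay above 0, with a median log2 fold change of 0.49, and before adjustment 5 had a p under 0.05 as higher and 1 as lower, against 7.59% and 9.27% of all genes tested. HSPH1, a co-chaperone of the HSP70 family, was at 281, 410, 475 and 645 CPM, with a log2 fold change of 0.70 ± 0.22 and an adjusted p of 0.174 in edgeR. HSP90AA1, the inducible HSP90, was at 3440, 4097, 4849 and 5849 CPM, and HSPA8, the constitutive HSP70, had a log2 fold change of 0.39 ± 0.18. HSPH1 and HSP90AA1 were called with no filter on low counts (adjusted p 0.00424 and 0.0363 in edgeR). HSPB1, a small heat shock protein named after its values were seen, went the other way, at 167, 80.2, 73.5 and 33.4 CPM, with a log2 fold change of -1.22 ± 0.38 and an adjusted p of 0.175. In both groups replicate 2 was the higher of the pair for HSPH1 and HSP90AA1, as it was for MYC, and the part of these genes in the results above was not tested. In HCT116 HSPB1 alone of the 3 listed heat shock genes was tested, with a log2 fold change of 0.55 and an adjusted p of 0.137.

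NR4A1, CCND1 and HMOX1 were picked after their values were seen. NR4A1, an orphan nuclear receptor of the same early wave, had 19 and 15 expected counts in the NCI-H716 controls and 1 and 3 with Z325, with an adjusted p of 0.118 in edgeR. CCND1, the cyclin of early G1 and an AP-1 target, was at 201, 153, 130 and 108 CPM in NCI-H716, lower in both treated libraries, with a log2 fold change of -0.58 ± 0.19 and an adjusted p of 0.185. HMOX1, the haem oxygenase gene and the AP-1 target with the smallest adjusted p in that line, 0.0813, had 2 and 7 expected counts in the controls and 49 and 72 with Z325. None of the 3 was analysed in HCT116. Among the epithelial markers in NCI-H716, EPCAM, KRT8 and KRT18 had log2 fold changes of -0.25 ± 0.18, -0.24 ± 0.16 and -0.21 ± 0.15. VIL1, named after its values were seen, moved most, by -0.85 ± 0.24 (adjusted p 0.156 in edgeR). Of 7 tested there, 5 lay below 0 and 2 above. None of the epithelial markers passed in either line. COL3A1 and HBB had log2 fold changes of 0.39 ± 0.16 and 1.39 ± 0.45 in NCI-H716, with adjusted p-values of 0.261 and 0.184 in edgeR (for HBB 0.0321 with no filter). LYZ had -0.38 ± 0.59. In HCT116 neither of the 2 listed markers of other cell types passed the filter on low counts.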
